A study of Mus musculus with 2 samples.

Results

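The miR-15/16 seed family is a group of miRNAs that carry the same seed, the stretch from base 2 to base 8 through which a miRNA mainly finds its targets. Its members here were taken by name: the guides mmu-miR-15a-5p, mmu-miR-15b-5p, mmu-miR-16-5p, mmu-miR-195a-5p, mmu-miR-322-5p and mmu-miR-497-5p, and the opposite strands mmu-miR-15a-3p, mmu-miR-15b-3p, mmu-miR-16-1-3p and mmu-miR-16-2-3p. The prefix mmu, for mouse, is left out below. These are 10 of the 1477 miRNA names with at least 1 count, 6 of them 5p and 4 of them 3p, and all 10 were counted in both libraries. The data are miRNA counts from 2 replicate libraries of 1 condition: cultured skin keratinocytes of the mouse with exogenous expression of a fusion of desmoplakin (Dsp) and the biotin ligase BirA, treated with biotin. Biotin-labelled proteins were captured on streptavidin beads with their RNA, to study the Argonaute proteins, which bind miRNAs, at desmosomal plaques, the protein plates under the junctions between epithelial cells. Which promoter drove the fusion, and whether the cells were 1 clone or the libraries separate cultures, is not given in the sources used here. There was no unlabelled, input or second condition to compare with, so every level is a share of what was recovered. In such shares, a smaller number of cells of a type and less RNA per cell cannot be told apart.

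A miRNA hairpin is cut into a duplex, and usually one strand, the guide, stays in Argonaute while the other, the passenger, is lost. In this family the 5p strand is the usual guide. The miR-15/16 miRNAs are known for restraining the cell cycle and cell survival, with cyclins and BCL2 among their described targets, and miR-15a and miR-16-1 lie in a region that is often deleted in chronic lymphocytic leukaemia. miR-195 rises with cell-cycle exit in heart muscle, and miR-322, whose human counterpart is miR-424, comes from an X-linked cluster induced during muscle differentiation. These are facts of other systems and not results of these libraries.

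The sequences show what ties the 6 guides together and what sets them apart. All were found in RefSeq (GRCm38.p6), are printed 5′ to 3′ with bases 2 to 8 in capitals, and share this seed without exception.
miR-16-5p: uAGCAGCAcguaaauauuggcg
miR-15b-5p: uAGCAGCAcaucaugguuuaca
miR-15a-5p: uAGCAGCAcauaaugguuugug
miR-322-5p: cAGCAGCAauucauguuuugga
miR-195a-5p: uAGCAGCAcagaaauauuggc
miR-497-5p (miR-497a-5p in RefSeq): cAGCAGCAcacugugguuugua

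Compared over all aligned positions, the shared seed included, miR-16-5p and miR-195a-5p resembled each other most, with 19 of 21 identical. The changes were G10A and U11G from miR-16-5p to miR-195a-5p, counted from the 5′ end. miR-15a-5p and miR-15b-5p were identical at 18 of 22 positions, with A12C, G20A, U21C and G22A from miR-15a-5p to miR-15b-5p. miR-16-5p and miR-15b-5p matched at only 14 of 22. miR-16-5p, the miR-15 guides and miR-195a-5p start with U, and miR-322-5p and miR-497-5p start with C.

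The guides come from 4 clusters. Mir15a and Mir16-1 lie on the minus strand of chromosome 14 (GRCm38.p6, 61632027 to 61632110 and 61631880 to 61631972), 54 bases apart and within the span of the long non-coding RNA gene Dleu2. Mir15b and Mir16-2 lie on the plus strand of chromosome 3 (69009772 to 69009835 and 69009902 to 69009996), 66 bases apart and within the span of Smc4, which encodes a condensin subunit. Mir195a (70235042 to 70235135) and Mir497 (70234717 to 70234800) are on the plus strand of chromosome 11, and Mir322 (53054255 to 53054349) is on the minus strand of chromosome X within the span of the long non-coding RNA gene C430049B03Rik. Whether these positions are exonic or intronic was not analysed. The hairpins of both miR-16 genes are shown because they show which reads can tell the loci apart. The mature miR-16-5p, in capitals, is the same in both, and the rest of the hairpin is not.
Mir16-1: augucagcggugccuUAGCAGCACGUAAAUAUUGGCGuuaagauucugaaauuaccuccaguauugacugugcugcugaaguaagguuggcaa
Mir16-2: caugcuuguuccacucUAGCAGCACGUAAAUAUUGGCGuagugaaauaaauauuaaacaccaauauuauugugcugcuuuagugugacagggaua

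The 3p strands differ between the loci, so they can be counted by locus. They are printed with their own bases 2 to 8 in capitals, and no pair of them shares a seed.
miR-15b-3p: cGAAUCAUuauuugcugcucua
miR-15a-3p: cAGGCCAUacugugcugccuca
miR-16-2-3p: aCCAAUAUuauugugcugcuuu
miR-16-1-3p: cCAGUAUUgacugugcugcuga

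Near their 3′ ends these strands carry the complement of the family seed. The 7-base run UGCUGCU begins at base 13 of miR-15b-3p and at base 14 of both miR-16 3p strands, while miR-15a-3p holds only its first 6 bases, UGCUGC. Of the 1679 mature miRNA names in the RefSeq table, 0.298% hold the 7-base run and 0.834% the 6-base run, which includes every holder of the longer one. Only the strand as written was searched.

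Both libraries had the miRNA profile of epithelial cells. Replicate 1 held 3776893 miRNA counts and replicate 2 held 4122955, and a count of 0 therefore allows up to 3 counts, or 0.794 and 0.728 counts per 1000000 miRNA counts (CPM). All 7 epithelial miRNAs of the miR-200 family, miR-205 and miR-203 were present in both, with 10.6% of counts in each. Markers of other cell types were scarce: the blood list took 6.09 and 17.7 CPM with 4 of its 6 names at 0 in at least 1 library, the mesenchymal list 16.2 and 97.3 CPM, the muscle list 34.7 and 20.4 CPM, the neural list 164.2 and 152.8 CPM, the liver name miR-122-5p 4.50 and 8.49 CPM, and the endothelial name miR-126a-3p 346.3 and 265.1 CPM.

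The 6 guides took 12.02% of all miRNA counts in replicate 1, with a Wilson 95% interval of 11.99% to 12.06%. They took 11.87% in replicate 2 (11.84% to 11.90%), for a mean of 11.9% ± 0.107 (SD, n = 2). Intervals here treat each read as an independent draw, so they cover counting error only and leave out variation between the libraries. Whether PCR copies were removed is not given in the sources used here. Grouping all 1233 names that have a RefSeq sequence by their bases 2 to 8 gave 1052 seed groups, and the miR-15/16 seed was the second largest in both libraries. The group of miR-31-5p was above it with 14.2% ± 0.366 and that of miR-27a-3p below it with 7.86% ± 0.0512, and both gaps exceeded the spread between the libraries. The names with a sequence covered 90.2% of counts in replicate 1 and 88.0% in replicate 2, so seed groups with missing members, such as that of miR-23b-3p, are understated.

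Within the family a single name carried nearly everything. miR-16-5p had 424604 counts in replicate 1 and 457657 in replicate 2, or 112422 and 111002 CPM. It made up 93.5% of the family in both libraries (mean 93.49% ± 0.00640, SD, n = 2). The difference between the libraries was smaller than the counting error of either, with Wilson intervals of 93.42% to 93.57% and 93.42% to 93.56%.

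**Figure D1:**
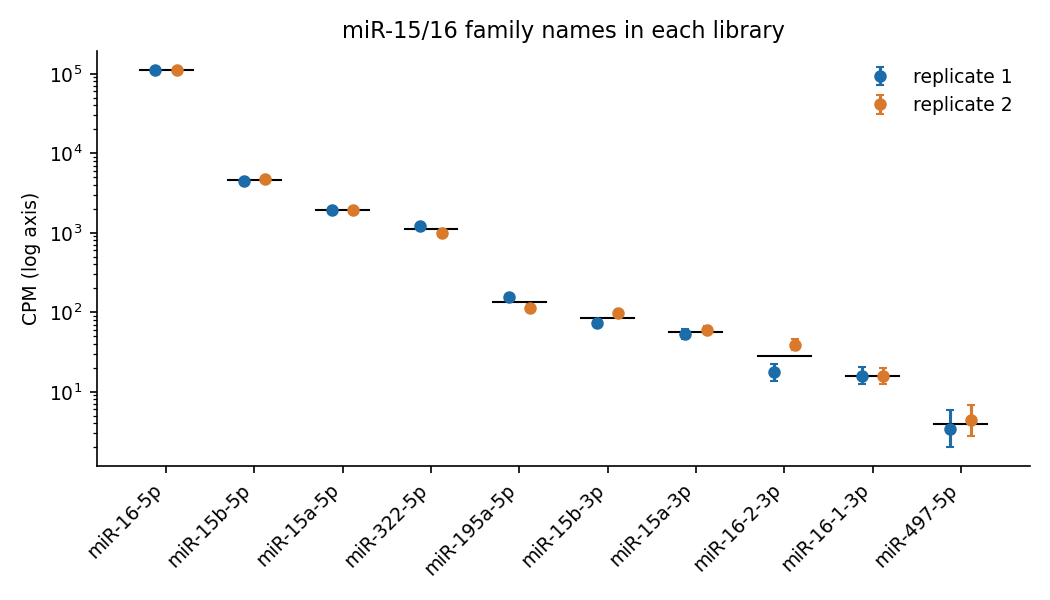
CPM of the 10 family names in each library on a log axis, ordered by their mean (black line, n = 2), with Wilson 95% intervals that cover counting error only. The names run from 111712 CPM for miR-16-5p to 3.90 CPM for miR-497-5p, and the libraries stand apart most clearly for miR-16-2-3p.

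The miR-15 guides followed at a distance. miR-15b-5p, from the chromosome 3 cluster, had 17034 and 19290 counts (4510 and 4679 CPM). miR-15a-5p, from the chromosome 14 cluster, had 7259 and 7966 counts (1922 and 1932 CPM). miR-15b-5p thus lay above miR-15a-5p in both libraries, 2.38 ± 0.0530 times (SD, n = 2), and miR-16-5p lay above miR-15b-5p 24.3 ± 0.850 times. An exact sign-flip test over 2 libraries has 0.5 as its smallest p-value, so gaps like these are judged by the SD alone.

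miR-322-5p, from the X-linked cluster, had 4652 and 4141 counts (1232 and 1004 CPM). It was the fourth guide in both libraries, with miR-15a-5p 1.74 ± 0.257 times above it (SD, n = 2). miR-195a-5p had 583 and 473 counts (154.4 and 114.7 CPM), and its near-twin in sequence, miR-16-5p, had 848 ± 169 times as many. How reads close to both were assigned is not stated, and the part this plays in the miR-195a-5p count was not tested. miR-497-5p, from the same chromosome 11 cluster as miR-195a-5p, had 13 and 18 counts (3.44 and 4.37 CPM), above the limit that a count of 0 allows. The order of the 6 guides was therefore the same in both libraries, and no neighbours in it exchanged places.

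Set among all names, miR-16-5p was second in both libraries and clear of its neighbours, miR-31-5p and miR-27a-3p. The other 9 members each had a neighbour in mean CPM that lay above them in one library and below in the other. miR-15b-5p, at rank 40, stood between miR-103-3p (5554 and 3778 CPM) and miR-709 (4021 and 5123 CPM). miR-15a-5p, at rank 68, stood between miR-135b-5p (1965 and 1891 CPM) and let-7d-5p (1998 and 1777 CPM). miR-322-5p, at rank 94, exchanged places with miR-34a-5p (1199 and 1113 CPM) but stayed above miR-297a-3p (1227 and 989.3 CPM). The ranks of these members are thus not resolved from those of their neighbours, while the order among the guides is.

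The first base divided the family as unevenly as the names did. The guides that start with U held 98.97% of the family in replicate 1 and 99.15% in replicate 2. Those that start with C held 1.03% and 0.850%, nearly all of it miR-322-5p. Over every name with a RefSeq sequence, names starting with U took 63.8% and 64.6% of the counts, and those starting with C took 6.48% and 6.28%. The family share is that of miR-16-5p and its relatives, so the starting base and the name cannot be told apart in it.

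Other names with the same seed added almost nothing. RefSeq lists 10 mature names with it, and 4 are outside the family as chosen by name. miR-6342 had 54 and 15 counts, miR-6353 had 1 and 0, and miR-6419 and miR-195b were not counted in either library. Of the related miRNAs that share the core AGCAGC in the first bases, miR-503-5p had 1599 and 1786 counts, and miR-103-3p and miR-107-3p, in which the core starts 1 base earlier, had 20976 and 15576, and 4644 and 10896. miR-16-5p outnumbered the sum of miR-103-3p and miR-107-3p 16.9 ± 0.506 times (SD, n = 2).

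The 3p strands were rare. miR-15b-3p had 277 and 399 counts (73.3 and 96.8 CPM), and miR-15a-3p had 201 and 248 (53.2 and 60.2 CPM). miR-16-2-3p had 66 and 161 counts (17.5 and 39.0 CPM), and miR-16-1-3p had 60 and 65 (15.9 and 15.8 CPM). Together they took 0.0160% of counts in replicate 1 and 0.0212% in replicate 2. In each library the 3p strands of miR-15 were above those of miR-16, although miR-16-5p was far above both miR-15 guides.

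The order of miR-15 and miR-16 therefore turned over between the strands. Each of these hairpin pairs holds 1 miR-15 and 1 miR-16 on neighbouring stretches of the genome. Among the 5p strands, miR-16-5p outnumbered the sum of miR-15a-5p and miR-15b-5p 17.5 times in replicate 1 and 16.8 times in replicate 2 (mean 17.1 ± 0.486, SD, n = 2). Among the 3p strands, the miR-15 names together had 3.79 times the counts of the miR-16 names in replicate 1 and 2.86 times in replicate 2 (mean 3.33 ± 0.658). Among the 3p strands this order was seen in each cluster: miR-15a-3p outnumbered miR-16-1-3p 3.35 and 3.82 times, and miR-15b-3p outnumbered miR-16-2-3p 4.20 and 2.48 times. The 5p order within a cluster cannot be given, since miR-16-5p is the same from both loci. These are ratios of reads between different sequences, which ligation and amplification can recover unequally, and the part of that was not tested.

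The same counts give how one-sided each hairpin was. For miR-16, with the 3p names of both loci summed, the 5p strand had 3370 times the counts of the 3p strand in replicate 1 and 2025 times in replicate 2. miR-15b had 61.5 and 48.3 times as many 5p as 3p counts, and miR-15a had 36.1 and 32.1 times. miR-322 was the least one-sided, with 426 and 314 counts of miR-322-3p and 10.9 and 13.2 times as many of miR-322-5p. The values of the libraries did not overlap between any of these 4, in this order. As shares, the 5p strand held 99.96% ± 0.0139 for miR-16, 98.2% ± 0.301 for miR-15b, 97.1% ± 0.230 for miR-15a and 92.3% ± 0.948 for miR-322 (SD, n = 2). The comparison took 185 hairpins with 100 or more counts per library and each strand counted in at least 1 library. Of these, 22 were summed over loci as for miR-16. Hairpins with 1 strand never counted, such as miR-195a, were left out, so ranks and median hold only among the 185. There miR-16 ranked 8 in one-sidedness by mean share, with its nearest neighbours within its SD. miR-15b ranked 70, miR-15a 80 and miR-322 110. The median share of the dominant strand over all 185 was 95.3%, above the share for miR-322.

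**Figure D2:**
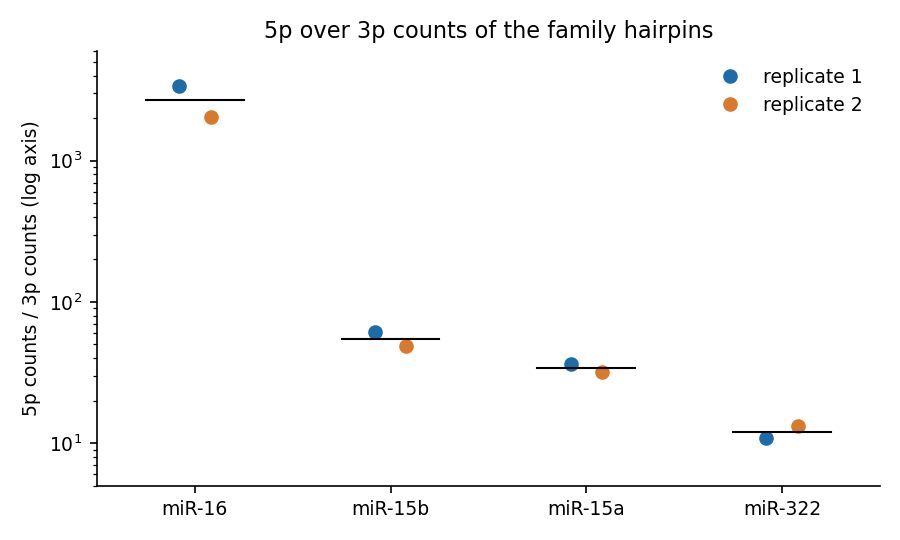
Counts of the 5p strand divided by counts of the 3p strand for the 4 family hairpins, on a log axis, with 1 point per library and the mean as a black line (n = 2). miR-16 sits at 3370 and 2025, far above miR-15b (61.5 and 48.3), miR-15a (36.1 and 32.1) and miR-322 (10.9 and 13.2).

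Strands of the remaining hairpin pair were at the limit. miR-195a-3p was not counted in either library, which allows up to 0.794 and 0.728 CPM, and miR-497-3p had 0 and 2 counts. No share of strands is given for them.

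The names that differ between the clusters allow 3 estimates of how the counts divide between chromosome 14 and chromosome 3. Among the miR-15 guides, miR-15a-5p held 29.9% and 29.2% (Wilson 95% intervals 29.3% to 30.5% and 28.7% to 29.8%), so the chromosome 3 cluster gave most of the counts. Among the miR-15 3p strands, miR-15a-3p held 42.1% (37.7% to 46.5%) and 38.3% (34.7% to 42.1%). The 3p estimate was above the 5p estimate in both libraries, with intervals that do not overlap, and both placed the larger part on chromosome 3. Counting error therefore does not cover the gap, while unequal recovery of the 4 sequences was not tested.

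The third estimate comes from the miR-16 3p strands and was the least settled. miR-16-1-3p held 47.6% and 28.8% (Wilson 95% intervals 39.1% to 56.3% and 23.3% to 35.0%), a mean of 38.2% ± 13.3 (SD, n = 2). The intervals do not overlap between the libraries. In replicate 1 an even split lies within the interval, and in replicate 2 it does not. The change came from miR-16-2-3p, which went from 66 to 161 counts, while miR-16-1-3p went from 60 to 65. For the abundant miR-16-5p itself the counts cannot be divided between its loci.

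**Figure D3:**
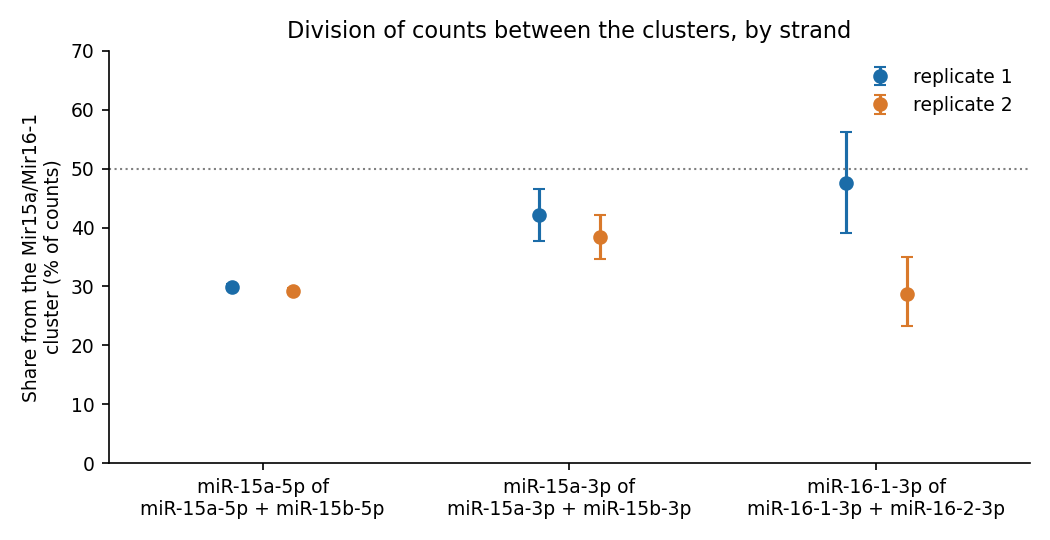
Percent of counts from the chromosome 14 cluster (Mir15a and Mir16-1) by each of the 3 pairs of names, with 1 point per library, Wilson 95% intervals for counting error and a dotted line at an even split of 50%. The miR-15 guides give 29.9% and 29.2%, the miR-15 3p strands 42.1% and 38.3%, and the miR-16 3p strands 47.6% and 28.8%.

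The libraries were compared name by name with an exact binomial test, two-sided, of how each name's counts divided against how the totals divide. Benjamini-Hochberg adjustment ran over the 1002 names averaging 10 counts or more. This compares 2 libraries and not conditions, and covers counting error only. All 10 members had enough counts to be tested. Of all names tested, 70.6% differed at an adjusted p-value of 0.05, and 6 of the 10 members did, 3 higher in replicate 2 and 3 lower. The members' count is thus near the background, in which 36.2% of names were higher and 34.3% lower.

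miR-16-5p passed the test with a log2 ratio of replicate 2 over replicate 1 of only -0.018 (95% interval -0.024 to -0.012, adjusted p = 9.76e-09), and miR-15b-5p with 0.053 (0.023 to 0.083, adjusted p = 8.85e-04). For miR-15a-5p the log2 ratio was 0.0076 (-0.038 to 0.054, adjusted p = 0.785). Among names with a mean above 10000 counts the SD of the log2 ratio was 0.22, and from 1000 to 10000 counts it was 0.33, so these 3 guides stayed inside the usual spread. The call for miR-16-5p was lost with DESeq2 size factors, where its log2 ratio was -9.21e-06. Those factors are set by the median ratio over names counted in both libraries, and miR-16-5p lay at that median. Its ratio under them was thus fixed by the scaling, so the lost call is no separate check.

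Of the X-linked and chromosome 11 guides, miR-322-5p and miR-195a-5p were lower in replicate 2. miR-322-5p had a log2 ratio of -0.29 (95% interval -0.36 to -0.23, adjusted p = 2.18e-20), and miR-195a-5p one of -0.43 (-0.61 to -0.25, adjusted p = 4.19e-06). Both were within 1 SD of the names at their abundance, where the SD was 0.33 for miR-322-5p and 0.48 for miR-195a-5p. Both were above the median absolute log2 ratio of those names, which was 0.16 for miR-322-5p and 0.30 for miR-195a-5p. miR-497-5p, with 0.34 (-0.77 to 1.49, adjusted p = 0.639), showed no difference detectable at this depth.

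Of the 3p strands, miR-16-2-3p moved most, with a log2 ratio of 1.16 (95% interval 0.74 to 1.60, adjusted p = 3.94e-08). The SD among names with a mean of 100 to 300 counts was 1.04, and 13 of these 102 names, itself included, had an absolute log2 ratio at least as large. miR-15b-3p, from the same cluster, had 0.40 (0.18 to 0.63, adjusted p = 7.22e-04). This was within 1 SD of the names with a mean of 300 to 1000 counts, where the SD was 0.48. The median absolute log2 ratio of those names was 0.30. The chromosome 14 strands did not pass: miR-15a-3p had 0.18 (-0.098 to 0.45, adjusted p = 0.245) and miR-16-1-3p -0.011 (-0.54 to 0.52, adjusted p = 1). The difference between the clusters in this respect was not tested by itself.

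**Figure D4:**
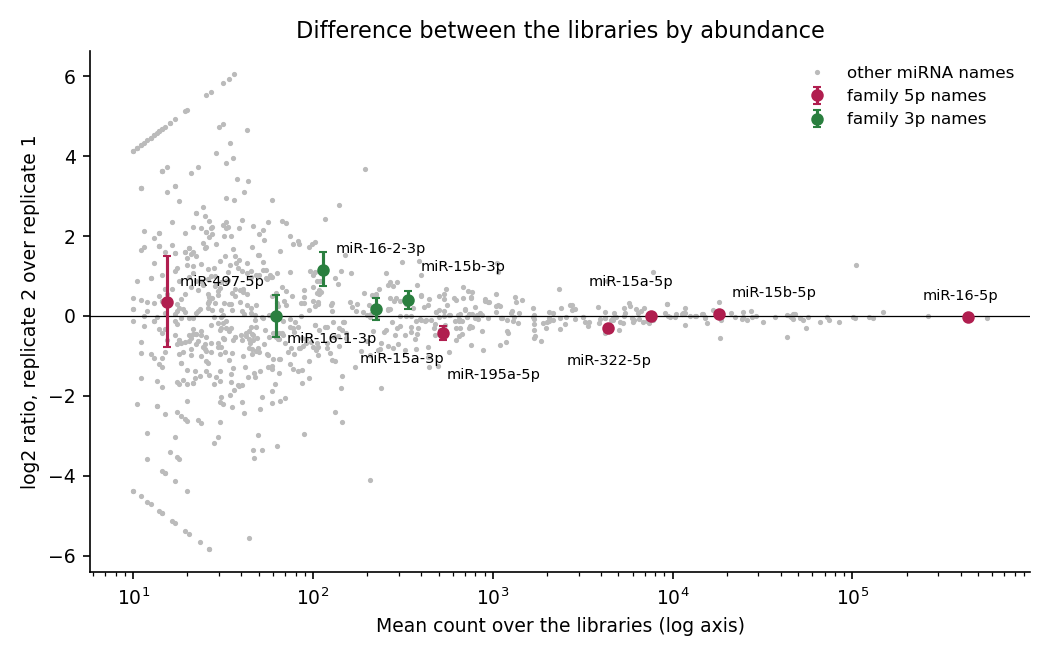
log2 ratio of replicate 2 over replicate 1 against the mean count (log axis) for the 853 tested names counted in both libraries, with the family 5p names in red and 3p names in green and exact 95% intervals. The 149 tested names with 0 counts in 1 library have no finite ratio and are not drawn. The members lie inside the cloud, from -0.43 for miR-195a-5p to 1.16 for miR-16-2-3p.

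The miRNAs encoded next to Mir322 and the opposite strands of the chromosome 11 and X hairpins form a list of 12 names, of which 11 were counted and 10 had enough counts to be tested. In the same cluster as miR-322-5p, miR-351-5p was more abundant, with 6040 and 5963 counts (1.37 ± 0.100 times miR-322-5p, SD, n = 2), and miR-503-5p less, with 1599 and 1786. Mir503 lies 200 bases from Mir322. miR-450a-5p (223 and 234 counts), miR-542-3p (167 and 260) and miR-450b-5p (146 and 238) were more than 10 times rarer than miR-322-5p in both libraries. Of the 10 tested, miR-542-3p and miR-450b-5p were higher in replicate 2 and miR-351-5p, miR-322-3p and miR-503-3p lower, which is 5 of 10 beside the background of 70.6%. miR-503-5p had a log2 ratio of 0.033 (95% interval -0.065 to 0.13, adjusted p = 0.565), so within this cluster the ratios ran in both directions.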

How the data were processed

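The authors deposited 1 table per library with a miRNA name and a whole-number count, not normalised. cutadapt, Novoalign and the mm10 build are named in the submitters' processing notes, without roles. The miRNA reference and the handling of PCR copies, chimeric reads and reads matching several miRNAs are not given in the sources used here. Names a table did not list were set to 0. Rows that are not miRNA names (0.00265% and 0.000218% of counts) were left out. CPM, shares with Wilson 95% intervals, ratios and exact binomial tests were computed from the counts with Python 3.11.15, pandas 2.3.3, numpy 2.4.6 and scipy 1.17.1. R 4.3.3 with edgeR 4.0.16 and DESeq2 1.42.0 supplied other scalings. No pseudocount was used. The libraries differed beyond counting error (chi-square per degree of freedom 60.6) and count as 2 samples. p-values take the counting error of reads as the only spread. A small one shows that these 2 libraries differ for a name, which may be technical. Sequences and positions are RefSeq's. miR-497-5p was matched to miR-497a-5p by its gene. The test between libraries was run on simulated data with set 2-fold changes and otherwise counting error only. That setting lacks the further differences seen between these libraries, so it cannot show how the test behaves on them. Members and lists were chosen with earlier results of these data known. Named are all members, names with their seed, cluster partners and rank neighbours.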

Additional observations from a re-analysis of the deposited data

How the results depend on the processing

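With miR-31-5p taken out of the total the family share was 13.9%, as the smaller total requires. miR-16-5p made up 93.48% of all names with the family seed and 88.3% of the family with miR-503-5p, miR-103-3p and miR-107-3p added. The number of names differing between the libraries was 707 of the 1002 tested. It was 254 when only names averaging 100 counts or more were tested, but far fewer names were then tested. The abundance classes from 100 counts up held 102, 97, 100 and 59 names with a finite ratio. The lower count alone therefore does not show closer libraries. Of the 1002 names, 441 passed when a 2-fold ratio was demanded as well. TMM or DESeq2 scaling, a threshold of 0.01 and testing without a count minimum, which tests more names, each left the number within 1.5 times of 707. For single members, 27 of 30 recomputed log2 ratios kept their direction and side of the threshold. Among the exceptions was miR-16-5p with DESeq2 size factors, a scaling that its own ratio helped to set, so it is no separate check. The others were miR-15a-5p with -0.0011 once miR-31-5p left the total, and miR-16-1-3p with 0.0073 with DESeq2 size factors. Neither of these others passed the threshold under either setting. Leaving out 1 of 2 libraries only returns the value of the other, so it is no separate check. These values ran from 11.87% to 12.02% for the family share and from 93.486% to 93.495% for miR-16-5p in the family. For the 3 estimates of the chromosome 14 share they were 29.2% to 29.9%, 38.3% to 42.1% and 28.8% to 47.6%. For the 5p strand of miR-16 they were 99.951% to 99.970%. At 13 and 18 counts, depth limits what can be said of miR-497-5p. No paired analysis was possible because both libraries belong to 1 group.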
